A study of Nothobranchius furzeri with 15 samples.

Results

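The 150 entries described here are killifish transcripts that were present in both brain and skin and low or absent in liver. They were taken from a catalogue of 18311 transcript entries by their read counts. Each count was scaled by the sample's total to counts-per-million (CPM), and the 5 samples of a tissue were averaged. Of the 10246 entries with a mean of at least 5 CPM in brain and in skin, the 150 with the largest ratio of the lower of these means to the liver mean plus 0.1 CPM were kept, which is 1.46% of them. The entries were thus chosen by their measured levels in brain, skin and liver, which are given as a description, with no test. The choice treated brain and skin alike in unscaled CPM and did not use which of them was higher there. That comparison was tested with another scaling of the libraries, on which the choice can bear on the direction.

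Nothobranchius furzeri is an annual killifish with a very short life, and all samples came from its strain GRZ at an age of 12 weeks. RNA of whole organs was sequenced from 5 brain, 5 skin and 5 liver samples, which the series describes as biological replicates. No treatment, mutation or other agent is named in the labels, and the sex of the fish is not stated in them. Brain and liver samples carry the title numbers 10, 11, 13, 14 and 15, and skin samples 5, 6, 7, 13 and 14.

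The vertebrate brain and epidermis both arise from the embryonic ectoderm, and the neural crest adds pigment cells and the sheath cells of nerves to the skin. The parenchyma of the liver, made mostly of hepatocytes, arises from the endoderm. Skin and brain also share cell types with much of the body, such as fibroblasts and vessel cells, and a whole organ is a mixture of all of these.

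Each entry carries a zebrafish gene identifier, but no table used here pairs these identifiers with gene names. None of the 150 catalogue identifiers and none of their zebrafish identifiers was found among 38438 genes of a killifish reference table. The entries therefore have no gene name or function here, their sequences are not shown, and 24 lists of marker and pathway genes, fixed by gene symbol, could not be applied. For the same reason the 3 tissue labels were not checked against marker genes. Entries are called by their rank in the list, from 1 for the largest ratio to 150, and 4 of them also by identifier.

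Total counts ran from 17.7 to 30.8 M per sample, so that 3 counts, the limit that a count of 0 allows, stood for 0.115 to 0.146 CPM in a liver sample. These limits cover counting error only. In unscaled CPM, liver 15 stood apart from the other livers. Among the 10246 entries at 5 CPM in brain and skin, it lay far above the other 4 livers in 12.98%, against at most 0.742% for any other liver sample. Skin 7 lay far above the other skin samples in 1.71% of these entries and skin 14 in 1.44%. The factor of the trimmed-mean (TMM) scaling, described with the test of brain against skin, was 0.726 in liver 15 and 0.546 to 0.604 in the other livers. It was 1.18 in skin 14 and 0.898 to 1.04 in the other skin samples. Such scaling would lower liver 15 and skin 14 against the other samples of their tissue, and these shares were not computed after it. Earlier results of these data also set skin 7 and liver 14 apart by a shared group of raised genes, and counts below are therefore also given without both samples.

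The 150 entries together made up 1.28% ± 0.0793 of a brain library, 0.945% ± 0.0833 of a skin library and 0.00794% ± 0.00176 of a liver library (SD, n = 5 each). With totals scaled by trimmed means (TMM, described with the test of brain against skin), the shares were 0.762% for brain, 0.949% for skin and 0.0133% for liver, and the brain sum was 0.802 times the skin sum. By sample the unscaled share was 1.21%, 1.31%, 1.24%, 1.403% and 1.23% in brain samples 10, 11, 13, 14 and 15. It was 0.922%, 0.970%, 0.822%, 1.05% and 0.959% in skin samples 5, 6, 7, 13 and 14, and skin 7 was the lowest of them. In liver samples 10, 11, 13, 14 and 15 it was 0.00902%, 0.00530%, 0.00903%, 0.00698% and 0.00940%, with the lowest value in liver 11. In whole organs, fewer cells of a type and less RNA per cell cannot be told apart.

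A typical entry was of middle abundance. The median over the 150 entries of the mean level was 39.2 CPM in brain, 27.7 CPM in skin and 0.281 CPM in liver. All 10246 entries at 5 CPM in brain and skin had like medians in these tissues, 39.8 CPM in brain and 26.7 CPM in skin, and 15.7 CPM in liver. Per length, in reads per kilobase of the entry and M counted reads (RPKM), the medians of the 150 entries were 13.2 RPKM in brain, 8.83 RPKM in skin and 0.0771 RPKM in liver. The highest means reached 519 RPKM in brain, 562 RPKM in skin and 1.51 RPKM in liver, in 3 different entries.

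**Figure D1:**
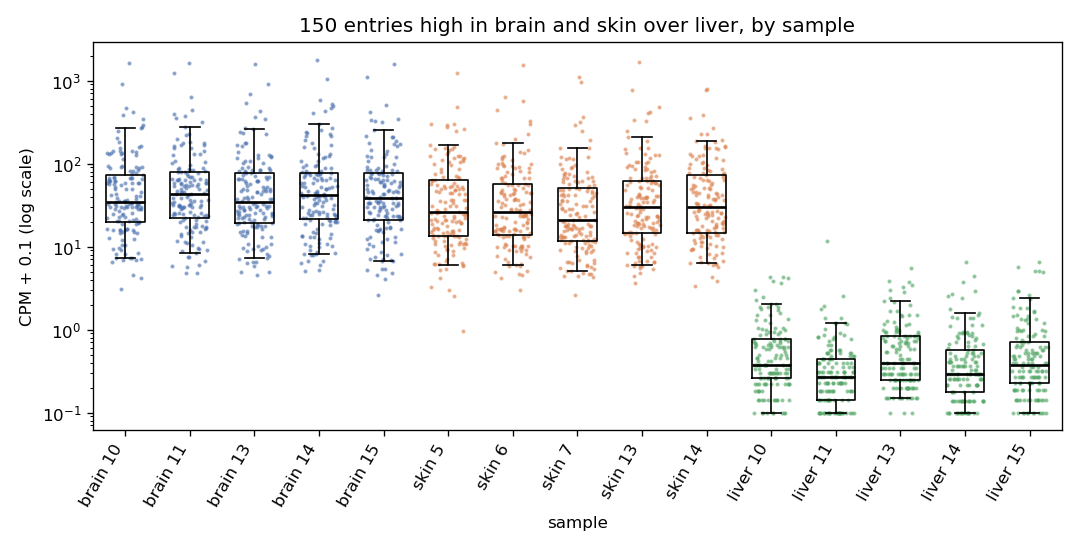
Level of the 150 entries in each of the 15 samples, as CPM plus 0.1 on a log axis, with brain on the left, then skin, then liver. Each point is 1 entry, boxes span the quartiles, whiskers reach from the percentile 5 to 95, and the bar marks the median, which without the added 0.1 was 34.1 to 42.3 CPM in brain samples, 20.6 to 29.7 CPM in skin samples and 0.169 to 0.292 CPM in liver samples.

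Few of the entries were wholly missing from liver. Only 1 of the 150, at rank 42, had no count in any liver sample. In all, 113 had a count in each of the 5 livers, 64 had more than 3 counts in each, and 15 had 3 counts or fewer in each. The mean liver level reached 1 CPM in 19 entries. In every one of the 150 entries, each brain sample and each skin sample lay above each liver sample. The choice by a high ratio over liver largely sets this separation, and its share among other entries was not computed.

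The ratio that ordered the list fell quickly from its top. It was 425 for the first entry and 202 for the second, had a median of 46.8, and was at least 100 in 23 entries and at least 50 in 67. The median over all 10246 entries at 5 CPM in brain and skin was 1.402. At the end of the list the values changed little: ranks 148, 149 and 150 had ratios of 30.4, 30.3 and 30.0, and the next 3 entries, outside the list, had 29.8, 29.7 and 29.6. The list thus ends within a continuous range of values.

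**Figure D2:**
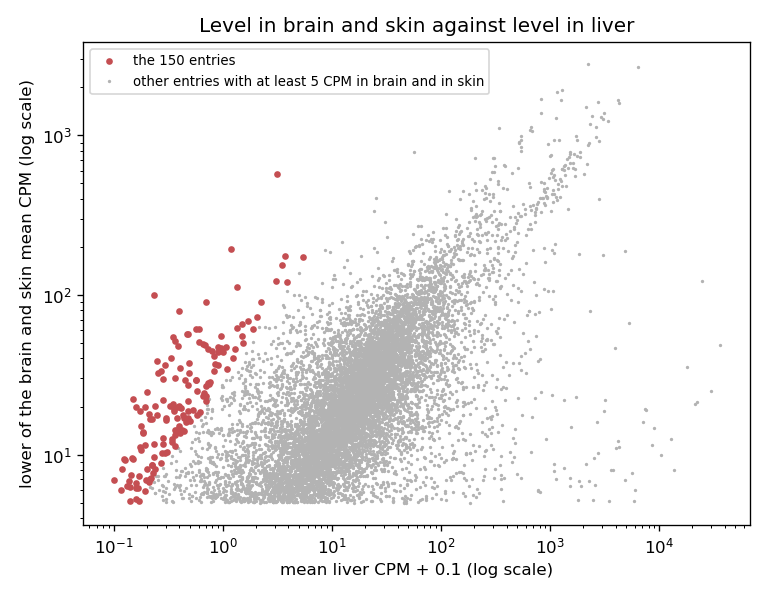
Lower of the brain and skin mean CPM (vertical, log axis) against the mean liver CPM plus 0.1 (horizontal, log axis) for the 10246 entries with at least 5 CPM in brain and in skin. The 150 entries of the list, in red, form the left edge of the cloud, with liver means up to 5.29 CPM and a ratio of at least 30.0.

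At rank 1, the level was 126, 94.97, 83.0, 118 and 74.5 CPM in brain samples 10, 11, 13, 14 and 15, and 122, 145, 67.3, 105 and 87.5 CPM in skin samples 5, 6, 7, 13 and 14. In the livers it was 0.279, 0.127, 0.0486, 0 and 0.215 CPM, which is 16 counts in all 5 together. The brain and skin samples overlapped over much of their range, with means of 99.3 ± 22.2 CPM in brain, 105 ± 30.1 CPM in skin and 0.134 ± 0.115 CPM in liver (SD, n = 5 each).

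The second entry had means of 79.6 ± 7.31 CPM in brain, 99.6 ± 29.9 CPM in skin and 0.294 ± 0.248 CPM in liver, with 34 counts over the 5 livers. Its brain samples lay between 72.5 and 91.6 CPM, inside the wider range of the skin samples from 56.1 to 130 CPM.

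Rank 3 combined a high ratio with the highest value in the list of the lower of the brain and skin means, in CPM and per length. Its mean was 573 ± 89.9 CPM in brain, 668 ± 273 CPM in skin and 3.03 ± 1.797 CPM in liver (SD, n = 5 each), or 286 RPKM in brain, 334 RPKM in skin and 1.51 RPKM in liver. Skin 5 was its lowest skin sample at 247 CPM, and the other skin samples lay between 566 and 957 CPM. Liver 11 was its lowest liver at 1.10 CPM, and liver 13 its highest at 5.49 CPM.

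The entry without any liver count, at rank 42, had a modest level elsewhere. It stood at 6.75, 7.35, 4.89, 8.09 and 7.71 CPM in brain samples 10, 11, 13, 14 and 15 and at 13.3, 9.98, 8.55, 9.35 and 15.1 CPM in skin samples 5, 6, 7, 13 and 14. All skin samples lay above all brain samples. In each liver a count of 0 allows a level of up to 0.115 to 0.146 CPM.

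The comparison of brain with skin showed how these entries were divided between the tissues. The choice used the lower of the brain and skin levels in unscaled CPM, and so bears on the size of their difference. It treated both tissues alike on that scale, but the test used another scaling, so the choice is not neutral to the direction tested. The comparison was made with edgeR's quasi-likelihood test over all 16611 entries with enough counts. It used trimmed-mean (TMM) scaling of the libraries and Benjamini-Hochberg adjustment, and all 150 entries could be tested. At an adjusted p under 0.05, 41 of the 150 entries were higher in brain and 63 were higher in skin, while 46 did not pass. Over all entries tested 69.9% passed in either direction, 34.7% higher in brain and 35.3% higher in skin, and the share among the 150 was 69.3%. Among the entries at 5 CPM in brain and skin 65.7% passed, 28.4% higher in brain and 37.3% higher in skin. The shares among the 150 were 27.3% higher in brain and 42.0% higher in skin. In both directions these shares lay near those of the entries from which the list was drawn.

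Scaling changed which tissue held more of the calls. TMM raised the effective library size of brain by a mean factor of 1.68, against 1.01 in skin and 0.598 in liver. Without this scaling 68 of the 150 entries, 45.3%, were higher in brain and 40, 26.7%, higher in skin, so that brain took 63.0% of the calls in place of 39.4%. Among the entries at 5 CPM in brain and skin, 53.2% were then higher in brain and 20.6% higher in skin, and over all entries tested 54.3% and 22.9%. Over all entries tested, the brain share of the calls likewise was 70.4% without scaling and 49.6% with it. With TMM and also without scaling, 81 entries passed in the same direction, 41 higher in brain and 40 higher in skin, and 0 passed in opposite directions. Removing the scaling shifted the log2 fold changes of the 150 entries by a median of 0.74 and at most 0.84. So nearly constant a shift leaves little room for opposite calls, and this agreement is a description.

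The median log2 fold change of brain over skin was -0.30 over the 150 entries, against 0.03 over all entries tested and -0.10 over those at 5 CPM in brain and skin. Without scaling the median over all entries tested shifted to 0.76 and that of the 150 entries to 0.43. Relative to all entries tested, the median of the 150 lay at -0.33 with TMM. A change of scaling shifts all fold changes by nearly the same amount and so cannot move this value much. It was -0.18 with RPKM in limma. Without skin 7 and liver 14, a setting chosen after the data were seen, 41 entries were higher in brain and 64 higher in skin. The shares over all entries are not given for this setting.

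The sizes of these differences were spread widely. The median absolute log2 fold change was 1.17 among the 150 entries, 0.76 among all entries at 5 CPM in brain and skin and 1.10 over all entries tested. A difference of at least 4-fold that passed the test was found in 37 of the 150 entries, 12 higher in brain and 25 higher in skin. In percent of the 150 this was 8.0% higher in brain and 16.7% higher in skin, against 5.69% and 11.8% of the entries at 5 CPM in brain and skin and 15.6% and 16.5% of all entries tested. Both directions together made up 24.7%, against 17.5% of the entries at 5 CPM in brain and skin and 32.1% of all entries tested. The minimum of 5 CPM in both tissues removes entries with large differences, so these shares are not comparable with those of the whole table, and the differences between the sets were not tested.

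The median SE of the fold change was 0.28 in the list, against 0.20 for the entries at 5 CPM in brain and skin. Each entry's spread was estimated over all 15 samples, so the liver values used in the choice also enter this SE and the intervals. With brain and skin samples only, 0 calls of the list were lost and 4 were gained, and the intervals were not compared there. The share of intervals within 2-fold depends on the size of the fold change as well as on the SE, and these were not separated. For 32 entries, 21.3%, the 95% interval of the fold change lay wholly within 2-fold either way, against 37.7% of the entries at 5 CPM in brain and skin and 27.2% of all entries tested. In CPM the 5 brain and 5 skin samples did not overlap for 62.0% of the 150 entries, against 67.2% of the entries at 5 CPM in brain and skin and 69.8% of all tested. With TMM-scaled CPM these shares were 59.3%, 59.7% and 63.4%.

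Position in the list went with the size of the difference only loosely. The ratio uses the lower of the brain and skin levels, so position is not independent of this size, and the values are a description. The first 50 entries of the list had a median absolute log2 fold change of 0.82, the next 50 had 1.51 and the last 50 had 1.202. Of the first 10, 1 was higher in brain, 7 were higher in skin and 2 did not pass. Higher in skin were 35.3% of all entries tested and 37.3% of those at 5 CPM in brain and skin. These calls depended on the scaling. Without it, only rank 4 of the 7 passed as higher in skin (edgeR adjusted p of 0.00129). Rank 9 then passed as higher in brain (edgeR adjusted p of 0.000395).

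**Figure D3:**
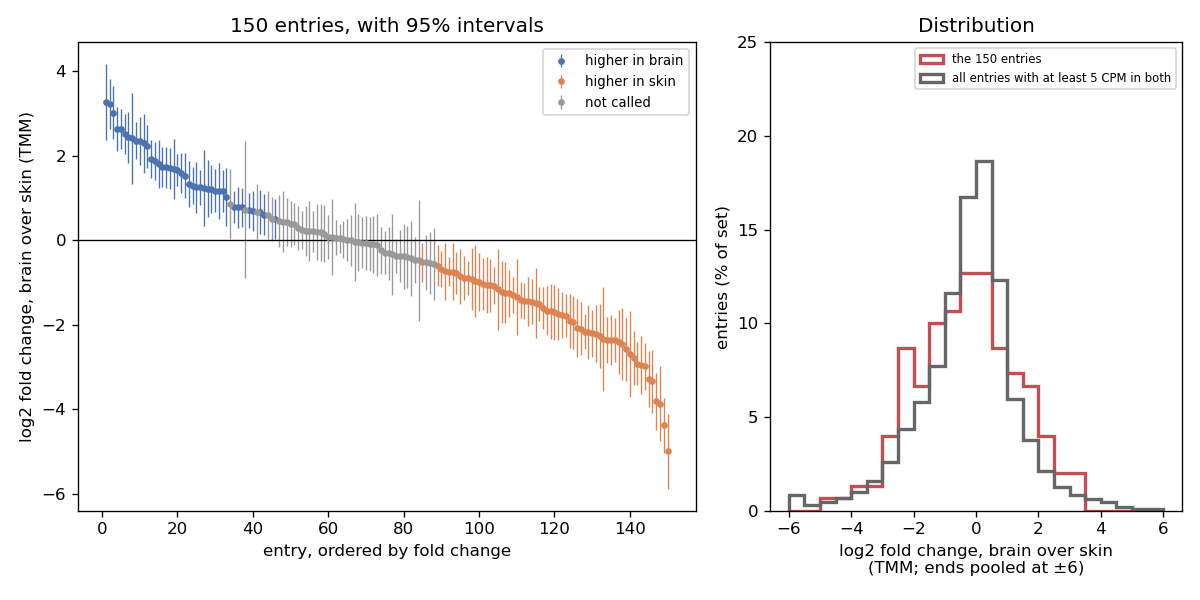
Left, log2 fold change of brain over skin (TMM-scaled) for the 150 entries in order of size, with 95% intervals and coloured by the edgeR call, from -5.00 to 3.27. Right, distribution of the same fold change in percent of each set for the 150 entries (red) and for all entries at 5 CPM in brain and skin (grey), with medians of -0.30 and -0.10.

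Among the 41 entries higher in brain, the median level was 88.1 CPM in brain, 16.9 CPM in skin and 0.326 CPM in liver. The 12 with at least 4-fold had medians of 153 CPM in brain, 15.5 CPM in skin and 0.270 CPM in liver, and the highest-ranking of them stood at rank 41. Nofu_gene_3_0018282, rank 99, whose zebrafish identifier is ENSDARG00000021948, had the largest difference. It stood at 136, 152, 122, 170 and 121 CPM in brain samples 10, 11, 13, 14 and 15, at 2.89, 4.99, 8.33, 13.99 and 13.1 CPM in skin samples 5, 6, 7, 13 and 14, and at 0.199, 0, 0.243, 0 and 0.172 CPM in the livers. The brain and skin samples did not overlap, and among the skin samples skin 5 was the lowest and skin 13 the highest. The log2 fold change of brain over skin was 3.27 with an SE of 0.43 and an edgeR adjusted p of 3.43e-06, and 4.02 without scaling.

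Nofu_gene_3_0010932, rank 83, with the zebrafish identifier ENSDARG00000038609, had the highest level per length in brain, 519 RPKM at a computed length of 2000 bases, a value that recurs among the entries. It reached 902, 1223, 922, 1054 and 1094 CPM in brain samples 10, 11, 13, 14 and 15, against 61.6, 51.0, 79.0, 85.6 and 50.3 CPM in skin samples 5, 6, 7, 13 and 14. The livers held 1.19, 0.802, 2.29, 1.04 and 1.72 CPM. Each tissue thus formed a narrow group far from the next. The log2 fold change of brain over skin was 3.23 with an SE of 0.28 and an edgeR adjusted p of 2.35e-08, and 3.99 without scaling. Rank 75 held the most counts in brain, 1641 ± 76.6 CPM, against 175 ± 63.7 CPM in skin and 3.63 ± 1.04 CPM in liver (SD, n = 5 each), with a log2 fold change of 2.51, an SE of 0.22 and an edgeR adjusted p of 3.35e-08.

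Among the 63 entries higher in skin, the median level was 27.3 CPM in brain, 57.3 CPM in skin and 0.293 CPM in liver. The 25 with at least 4-fold had medians of 23.4 CPM in brain, 86.4 CPM in skin and 0.382 CPM in liver. Of these 25, 23 were best bidirectional hits, a flag for mutual best matches with the zebrafish gene. The flag was carried by 8 of the 12 entries at least 4-fold higher in brain and by 82.0% of the whole list. It was carried by 51 of the 63 entries higher in skin, by 29 of the 41 higher in brain and by 43 of the 46 that did not pass. The differences between these shares were not tested. Nofu_gene_3_0015182, rank 96, with the zebrafish identifier ENSDARG00000042690, had the highest level per length in skin, 562 RPKM. It stood at 67.1, 75.4, 61.2, 72.4 and 64.9 CPM in brain samples 10, 11, 13, 14 and 15, against 1244, 1553, 1092, 1675 and 768 CPM in skin samples 5, 6, 7, 13 and 14. The livers held 2.19, 0.675, 2.77, 0.652 and 1.76 CPM. Every skin sample lay more than 10 times above every brain sample. The log2 fold change of brain over skin was -5.00 with an SE of 0.42 and an edgeR adjusted p of 1.99e-08, and -4.21 without scaling.

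Nofu_gene_3_0015635, rank 102, with the zebrafish identifier ENSDARG00000021633, followed the same order. Its levels were 30.8, 28.2, 29.9, 26.1 and 25.6 CPM in brain samples 10, 11, 13, 14 and 15, against 297, 438, 313, 423 and 229 CPM in skin samples 5, 6, 7, 13 and 14, with 0.955, 0.253, 0.632, 0.460 and 0.858 CPM in the livers. The log2 fold change of brain over skin was -4.37 with an SE of 0.31 and an edgeR adjusted p of 1.98e-09, and -3.60 without scaling. In both entries, skin 6 and skin 13 were the higher samples and skin 14 was the lowest, while the brain samples differed little.

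**Figure D4:**
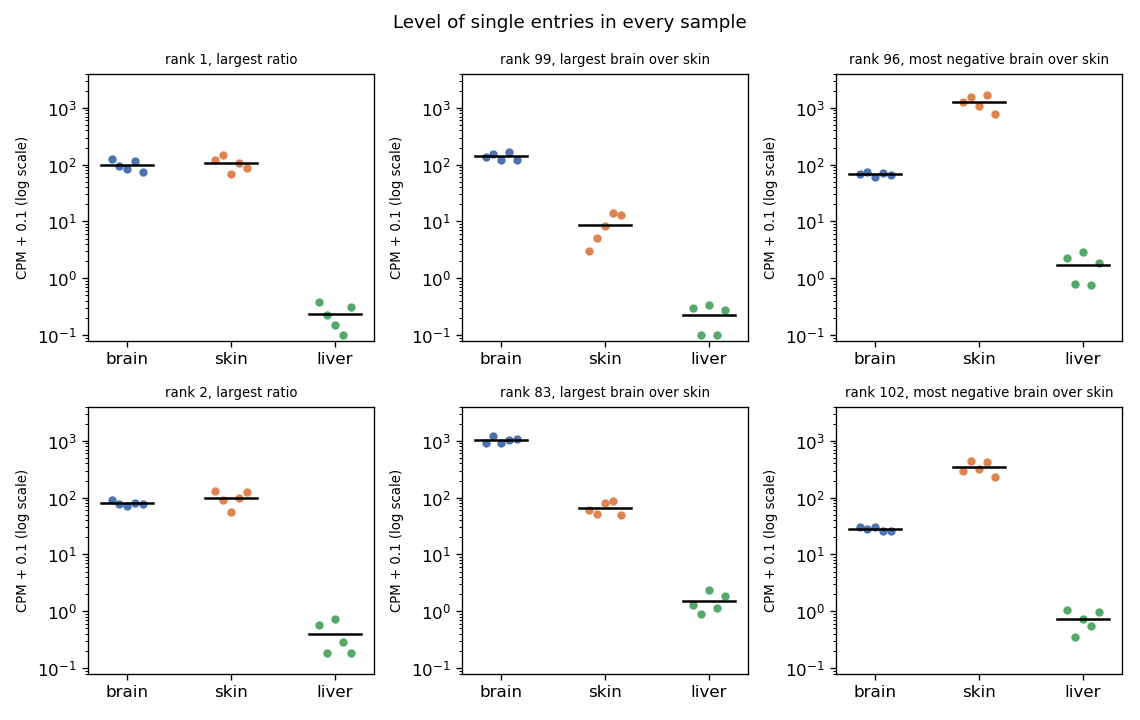
Level of 6 entries in every sample, as CPM plus 0.1 on a log axis, with 1 point per sample and a bar at the mean of each tissue. Ranks 1 and 2 (left) lie between 56.1 and 145 CPM in all brain and skin samples, ranks 99 and 83 (middle) lie higher in brain, ranks 96 and 102 (right) lie higher in skin, and all 6 are lowest in liver.

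Ranks 1, 2 and 3 passed the test as higher in skin, but these calls depended on the scaling or on single samples. For rank 1 the log2 fold change of brain over skin was -0.86 with an SE of 0.31 and an edgeR adjusted p of 0.0199. Without scaling it was -0.09 with an adjusted p of 0.802, and the call was also lost without brain 11, brain 13, brain 15 or skin 6, with adjusted p from 0.0562 to 0.0676. For rank 2 it was -1.05 with an SE of 0.31 and an edgeR adjusted p of 0.00695, and -0.32 without scaling with an adjusted p of 0.343. Rank 3 passed narrowly at -0.97 with an SE of 0.40 and an edgeR adjusted p of 0.0404, and did not pass without scaling, at -0.22 with an adjusted p of 0.599, or without any 1 brain sample or any 1 skin sample other than skin 5, with adjusted p from 0.0536 to 0.0964. Leaving out any 1 of the 15 samples ended at most 9 of the 104 calls of the list and reversed 0.

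In unscaled CPM, the median spread among replicates of a tissue was larger for these entries than for those at 5 CPM in brain and skin. This difference was not tested. The median coefficient of variation of CPM was 17.7% over brain samples, 29.8% over skin samples and 58.3% over livers, against 14.03%, 20.5% and 28.6% for the entries at 5 CPM in brain and skin. At the low counts of liver, the spread includes counting error. The coefficient was higher in skin than in brain for 121 of the 150 entries, 80.7%, against 73.2% of the entries at 5 CPM in brain and skin. Rank 5 varied least in brain, with 3.36%, and rank 69 varied least in skin, with 7.42%.

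Rank 105 varied most in skin, and 1 sample set this. Its brain samples lay at 38.6, 44.7, 49.9, 52.5 and 47.0 CPM, while skin 5, 6, 13 and 14 stood at 2.44, 4.12, 4.32 and 5.85 CPM and skin 7 at 68.0 CPM. Skin 7 thus lay above all brain samples and the other 4 skin samples far below them. The log2 fold change of brain over skin was 0.72 with an SE of 0.76 and an edgeR adjusted p of 0.413, and without skin 7 it was 2.73 with an adjusted p of 2.84e-05.

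Rank 144 varied most in brain, where its lowest sample was brain 15 at 2.50 CPM, its median 7.08 CPM and its highest brain 13 at 23.9 CPM. In skin it ran from 22.7 CPM in skin 6 to 52.1 CPM in skin 5, and its log2 fold change of brain over skin was -2.33 with an SE of 0.58 and an edgeR adjusted p of 0.00187. The highest brain sample of this entry reached the range of the skin samples. Rank 149, just inside the end of the list, had its skin mean of 5.15 CPM near the minimum, with 0.850 CPM in skin 5 and 4.64 to 7.88 CPM in the other skin samples.

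Single samples were often the extreme ones in unscaled CPM. Among skin samples the TMM factor was highest in skin 14, at 1.18, and lowest in skin 6, at 0.898, so these counts may differ after scaling. Skin 7 was the lowest skin sample for 60 of the 150 entries, 40%, against 24.01% of the entries at 5 CPM in brain and skin. Skin 14 was the highest for 52 entries, 34.7%, against 45.5%. In brain, brain 13 was the lowest sample for 60 entries, 40%, against 32.4%, and brain 14 the highest for 49, 32.7%, against 32.6%. Skin 14 and brain 13 were thus also the most frequent extremes among the other entries, but skin 7 was not: there skin 6 was the lowest most often, for 33.0% of entries, against 14.7% of the 150.

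In unscaled CPM, the residual counts in liver followed another order than the liver levels of all entries at 5 CPM in brain and skin. An entry whose lowest or highest value was shared by several livers was counted for none of them. Liver 11 was the lowest liver for 63 of the 150 entries, 42.0%, against 19.5% of the entries at 5 CPM in brain and skin, and it lacked any count for 27 entries. Liver 13 was the highest for 54 entries, 36.0%, against 7.33%, and lacked a count for only 3. Liver 15, which was the highest liver for 52.5% of the entries at 5 CPM in brain and skin, was the highest for 26.7% of the 150. Livers 10, 14 and 15 lacked a count for 9, 18 and 12 entries. The other 1752 entries at 5 CPM in brain and skin with a liver mean under 5 CPM summed to 4594, 3836, 4004, 5162 and 5572 CPM in livers 10, 11, 13, 14 and 15. By that sum liver 11 was again the lowest, but liver 13 was the second lowest. What brought these counts into the liver libraries was not tested.

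All 150 entries together had 9388 counts over the 5 livers, and 10 entries held 37.3% of them. Rank 139 had the highest liver mean, 5.29 ± 3.85 CPM, with 3.74, 11.5, 3.16, 6.37 and 1.72 CPM in livers 10, 11, 13, 14 and 15. Here liver 11 was the highest liver. Rank 54 rested on 1 liver: liver 10 had 2.87 CPM, from 72 counts, and the other 4 had 0.211 to 0.632 CPM, from 5 to 13 counts. The same kind of single sample was seen for rank 114, with 1.67 CPM in liver 10, for rank 121, with 1.12 CPM in liver 15, and for rank 8, with 0.827 CPM in liver 13.

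In length and in their match to zebrafish the 150 entries were close to the other entries at 5 CPM in brain and skin. Their median length was 3022 bases, from 986 to 14991, against 3011 bases for the entries at 5 CPM in brain and skin and 2372 bases for the whole catalogue. A computed length of exactly 2000 bases recurred, among others at ranks 3, 7, 11, 17 and 83 and in the companion of rank 27. The lower quartile over the entries at 5 CPM in brain and skin was also 2000 bases. Whether this is a measured length is not stated, so levels per length of such entries are uncertain. Best bidirectional hits made up 82.0% of the 150, 84.4% of the entries at 5 CPM in brain and skin and 74.1% of the catalogue. The 150 entries carried 150 different zebrafish identifiers. For 44 of them, 29.3%, another catalogue entry carried the same identifier, against 23.8% of the entries at 5 CPM in brain and skin and 28.1% of the catalogue.

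These shared identifiers pointed to 54 other entries, and 0 of the 54 were in the list. An identifier shared by several entries can mark gene copies or parts of 1 gene, and the files do not say which. Of the 54, 14 reached 5 CPM in brain only, 4 in skin only, 9 in brain and skin, 1 in brain and liver, 14 in all 3 tissues and 12 in none. Per length, 16 of them reached a liver mean of 1 RPKM, belonging to 15 entries of the list, whereas 1 of the 150 entries did. For 24 of the 54, all 5 livers of the other entry lay above all 5 livers of the listed one in RPKM. The listed entries were chosen for a low liver level and their companions were not, so this difference is a description.

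Several pairs, picked for a high companion, differed widely in liver. At rank 27 the listed entry had 9.61 RPKM in brain, 5.39 RPKM in skin and 0.0283 RPKM in liver. Its companion had 22.3 RPKM in brain, 59.9 RPKM in skin and 44.5 ± 19.3 RPKM in liver (SD, n = 5). At rank 8 the listed entry had 11.1 RPKM in brain, 14.6 RPKM in skin and 0.0565 RPKM in liver. The entry that shares its identifier stood at 5.71 RPKM in brain, 4.89 RPKM in skin and 12.6 ± 2.23 RPKM in liver, so that liver was its highest tissue. At rank 126 the listed entry had 5.68 RPKM in brain, 2.66 RPKM in skin and 0.0461 RPKM in liver, while its companion was highest in skin, with 7.84, 31.5 and 9.12 RPKM in the same tissues.

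Other pairs differed between brain and skin. Rank 110 had 31.7 RPKM in brain, 7.71 RPKM in skin and 0.195 RPKM in liver, whereas the most abundant of its 3 companions had 3.56 RPKM in brain, 252 RPKM in skin and 2.15 RPKM in liver. Another of the 3 was low in all tissues, with 1.29 RPKM in brain, 1.23 RPKM in skin and 0.111 RPKM in liver, and the last had 0.00888, 2.99 and 0.0150 RPKM. Rank 118 had 10.2 RPKM in brain, 7.67 RPKM in skin and 0.183 RPKM in liver, and its companion stood almost wholly in brain, with 140, 0.266 and 0.309 RPKM in the same tissues. Rank 33 had 3.86 RPKM in brain and 7.67 RPKM in skin, and its companion 88.8 RPKM in brain and 1.49 RPKM in skin. Rank 84 had 8.40 RPKM in brain, 9.53 RPKM in skin and 0.175 RPKM in liver, and its companion, which missed the list narrowly at rank 152, had 14.9, 9.04 and 0.290 RPKM. How reads that match several entries were counted is not stated, so the split of reads between near-identical copies is uncertain.

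**Figure D5:**
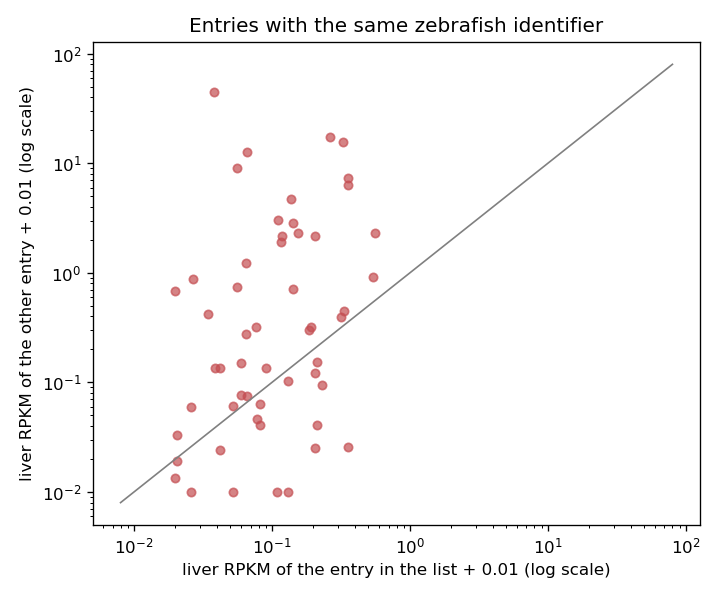
Mean liver RPKM plus 0.01 of the 54 other entries (vertical, log axis) against that of the listed entry with the same zebrafish identifier (horizontal, log axis), with 1 point per pair and a line of equality. In 37 of the 54 pairs the other entry lies above its listed entry, with medians of 0.277 RPKM for the other entries and 0.0765 RPKM for the listed ones.

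Catalogue identifiers are numbered, and the meaning of the order is not stated. Of the 54 companions 41 lay within 5 numbers of the listed entry, and this share was not computed for other entries with a shared identifier. Of the 150 entries 22 had another listed entry within 5 numbers, and the count for entries drawn at random was not computed. Numbers 8799, 8800, 8801, 8802 and 8805 were all in the list, each with its own zebrafish identifier. Their means were 29.3, 15.7, 6.96, 23.4 and 30.1 CPM in brain, 47.8, 9.49, 11.3, 110.6 and 81.7 CPM in skin, and 0.352, 0.0457, 0, 0.597 and 0.264 CPM in liver. Just before them, numbers 8797 and 8798 stood at 28.2 and 21.1 CPM in liver, and between and after them, numbers 8803, 8804 and 8806 stood under 2 CPM in all 3 tissues. Number 8807 had 6.43 CPM in brain, 3.95 CPM in skin and 0 counts in liver, and its skin mean was under the minimum of 5 CPM.

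The same rule was applied to the other tissue pairs, in unscaled CPM, and the ratios of each list are given as a description. For brain and skin over liver, the ratio was 425 at the top and 30.0 at rank 150. For liver and skin over brain it was 263 at the top and 7.51 at rank 150, and for brain and liver over skin 194 and 3.78. The mean TMM factors were 1.68 in brain, 1.01 in skin and 0.598 in liver. Such scaling lowers brain levels and raises liver levels, so the ratios over liver would fall and those over brain would rise. The lists were not compared after scaling, so the gap between their ratios may partly reflect the scaling. The starting sets held 10246, 8709 and 8623 entries. Within 5 catalogue numbers of another listed entry lay 22 of the 150 entries high in brain and skin, 29 of those high in liver and skin and 19 of those high in brain and liver.

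The same libraries were also counted on 23546 gene models of the genome, whose identifiers cannot be joined to the catalogue. There the rule started from 9810 models and gave ratios of 317 at the top and 40.2 at rank 150. Its 150 models made up 1.44% ± 0.0411 of a brain library, 1.1996% ± 0.0814 of a skin library and 0.00657% ± 0.00219 of a liver library (SD, n = 5 each). The rule takes the top 150 of any table, so high brain and skin shares beside a low liver share were set by the choice. It was not possible to match these models to the 150 entries. Both sets come from the same samples, so the genome counts are not independent of the catalogue counts.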

How the data were processed

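RNA of brain, skin and liver was sequenced in 15 samples from libraries made with a TruSeq RNA kit, as stated per the labels' protocols. Tools listed in the submitters' processing notes, without a role, are featureCounts 1.4.3-p1, TopHat2 2.0.6, Bowtie and CASAVA 1.8.2. The genome build and annotation were not given in the sources used here, nor were strandedness and the handling of reads that match several entries. The authors deposited read counts per catalogue entry and per genome model as whole numbers, which were treated as raw counts. The authors also deposited RPKM values for the catalogue, per the file headers. These are reads per kilobase and M counted reads, and entry lengths were computed from them. A flag for best bidirectional hits, of another kind than a measurement, came with the deposited tables. The 60 columns of other samples were not used.

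CPM were computed from column totals. Members of the list and all gene lists were chosen with earlier results of these data known. Brain was compared with skin in edgeR 4.0.16 (R 4.3.3) with a quasi-likelihood fit over all 15 samples, filterByExpr with a count minimum of 10, TMM scaling and Benjamini-Hochberg adjustment over 16611 entries, with a threshold of 0.05. The standard error (SE) is the log2 fold change divided by the square root of F. The procedure was tested on simulated data in which few entries changed and all tissues otherwise had the same composition. That test therefore does not bear on the choice of scaling. A sample was called far from the others when its gap to the nearest, divided by the range of the 5 samples, exceeded 0.71, on log2 of CPM plus 0.1 for counts over many entries and on CPM for single entries. Alternatives were another scaling, DESeq2 1.42.0, no filter, brain and skin samples only, RPKM with limma 3.58.1, a replicate block, other constants and minimums in the rule, and each sample left out.

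Entries were to be named by the largest ratio, the highest level, the largest brain over skin difference in each direction, the ends of the list and the highest single livers. With no gene symbols, 2 identifiers per direction are printed. The entries described for their spread between samples, the companions with the same identifier and the run of catalogue numbers were chosen after their values were seen. Title numbers 13 and 14 occur in brain and in skin, and no label says that they mark 1 fish, so samples were not paired.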

Additional observations from a re-analysis of the deposited data

Results flagged for a closer look

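In 4 of 48 groups of 5 samples examined, 1 sample lay far from the rest, which chance gives in about 1 of 20 groups, and 3 of these entries were picked for their spread between samples or for a single high liver. Rank 76 stood at 108 CPM in brain 13, against 45.3 to 58.2 CPM in the other brain samples. Its means were 62.4 ± 25.9 CPM in brain, 378 ± 76.1 CPM in skin and 1.24 ± 0.603 CPM in liver (SD, n = 5 each), and its log2 fold change of brain over skin was -3.34 (SE 0.35, edgeR adjusted p = 2.49e-07). Rank 105 stood at 68.0 CPM in skin 7, against 2.44 to 5.85 CPM in the other skin samples. Rank 144 stood at 0.827 CPM in liver 13, against 0 to 0.230 CPM in the other livers, and its mean there was 0.268 CPM. Rank 54 stood at 2.87 CPM in liver 10, against 0.211 to 0.632 CPM in the other livers. What set these samples apart was not tested.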

How the results depend on the processing

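Entries higher in brain numbered 68 without scaling and 72 with RPKM in limma, and those higher in skin 40 and 41, against 41 and 63 with TMM. The RPKM setting also leaves out TMM, and it changes the measure and the test, so it is not a separate check of the scaling. Fold changes of the 150 entries shifted by a median of 0.76 with it and 0.74 without scaling. With RPKM in limma, brain took 63.7% of the calls of the list and 71.5% of those over all entries tested. The median log2 fold change of brain over skin reversed to 0.43 without scaling and to 0.57 with RPKM in limma. Single fold changes that reversed there without passing the test in any of these fits were rank 54, at 0.40 without scaling and 0.42 with RPKM in limma, and rank 139, at 0.21 and 0.22, against -0.33 and -0.56 with TMM. Leaving out 1 sample gave 39 to 43 entries higher in brain, 55 to 64 higher in skin and medians from -0.32 to -0.10, the last without skin 13. The replicate block, in which brain and skin share only numbers 13 and 14 (correlations of their deviations 0.03 and 0.26), gave 36 entries higher in brain, 51 higher in skin and a median of -0.36. In this block a skin sample whose number occurs in no other tissue is fitted exactly and carries no weight. The skin side of the comparison thus rests on skin 13 and skin 14 alone. The block ended 20 calls, among them ranks 1, 2 and 3 (edgeR adjusted p = 0.108, 0.0609 and 0.103). It added 3, among them rank 105 at 2.87 (adjusted p = 0.00183), whose 1 high skin sample carries no weight there. In the block, brain took 41.4% of the calls of the list and 49.4% of those over all entries tested. DESeq2 gave 45 and 63, its size factors in edgeR 41 and 61, no filter 44 and 59, and brain and skin samples alone 44 and 64. For these settings, and with 1 sample left out, the shares over all entries are not given here, so the counts do not single out the list. For the 13 entries described singly, 266 fold changes under an alternative kept their direction and side of the threshold, 24 lost a call, 5 gained one and 4 reversed. Of the 150 entries, 93 stayed in the list with RPKM in place of CPM, 93 with a constant of 1 CPM, 124 with TMM-scaled totals, and 140 to 148 with 1 sample left out. With TMM-scaled totals the summed share was 0.762% in brain and 0.0133% in liver, and the ratio of the brain to the skin sum was 0.802, against 1.31 to 1.39 with 1 sample left out. Apart from the skin samples without weight in the block, what caused these shifts was not tested. Depth limits the liver values, since 15 entries had at most 3 counts in every liver.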
